A study of Homo sapiens with 15 samples.

Results

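The 10 genes described here were noncoding host genes of small nucleolar RNAs (snoRNAs): GAS5, SNHG1, SNHG5, SNHG6, SNHG8, SNHG12, SNHG15, SNHG16, ZFAS1 and EPB41L4A-AS1. They were chosen by name, not by their values, from the 61533 rows of the count table, and all 10 were among the 18391 genes kept by edgeR's filter on low counts. RNA-seq was made from HEK293 cells, a human embryonic kidney line that the labels call HEK293T, as 15 libraries, 3 in each of 5 groups. The condensed group was SPARK-OFF cells carrying YAP-MAML2 with DMSO for 5 h, and the diffuse group was the same cells with rapamycin for 5 h. In SPARK-OFF, FKBP is joined to the fusion and Frb to mCherry, and rapamycin brings mCherry to the condensates, which then dissolve. The control DMSO and control rapamycin groups carried the tagged fusion without the mCherry part and received DMSO or rapamycin for 5 h. The eGFP group was mock-treated cells without the fusion, and the labels name no vehicle for it, so that any difference from eGFP cells also carries DMSO or rapamycin. For the control DMSO samples the description names rapamycin while title and treatment name DMSO. The title and the treatment were followed.

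Intron-encoded snoRNAs guide the modification of ribosomal and other RNAs, and the spliced exons of a noncoding host gene are left over once the introns have been processed. Several of these host genes start transcription at a terminal oligopyrimidine (TOP) sequence, a C followed by a run of pyrimidines, as the mRNAs of ribosomal proteins do. The spliced host RNA, of which GAS5 is the classic case, can be loaded onto ribosomes, where its short reading frame leads to nonsense-mediated decay. Rapamycin inhibits mTORC1, the kinase complex that favours translation of TOP mRNAs, and GAS5 RNA is known to accumulate in cells whose growth or translation is arrested. The comparisons below ask how the levels of the host genes stood with rapamycin, with the fusion and with its condensates.

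The starts of the host genes are printed because the TOP sequence is the feature that gives the set its name. Each line holds 60 bases of hg38, with 35 bases before the start base, and capitals mark the longest run that begins with C, goes on with at least 4 pyrimidines and begins within 5 bases of the start, on the gene's own strand. The starts of ZFAS1, SNHG5, SNHG12, SNHG16 and SNHG8 are those of RefSeq (GRCh38.p14), and the start of GAS5 is that of its canonical transcript in GENCODE v44, which lay 1056 bases from the RefSeq start.
GAS5, chr1:173867965-173868024, minus strand: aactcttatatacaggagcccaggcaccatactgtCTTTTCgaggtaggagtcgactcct
ZFAS1, chr20:49278607-49278666, plus strand: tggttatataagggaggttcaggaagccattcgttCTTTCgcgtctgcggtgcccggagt
SNHG5, chr6:85678709-85678768, minus strand: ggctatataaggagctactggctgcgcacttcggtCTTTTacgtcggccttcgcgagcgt
SNHG12, chr1:28581849-28581908, minus strand: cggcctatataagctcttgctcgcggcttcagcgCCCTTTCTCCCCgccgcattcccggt
SNHG16, chr17:76557729-76557788, plus strand: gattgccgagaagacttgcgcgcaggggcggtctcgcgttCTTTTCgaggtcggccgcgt
SNHG8, chr4:118278727-118278786, plus strand: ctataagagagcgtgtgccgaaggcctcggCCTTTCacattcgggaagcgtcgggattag

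Of the 8 host genes with a RefSeq window, 5 had such a run at the RefSeq start, or 62.5%, against 21.1% of 35116 promoters and 75% of 76 cytosolic ribosomal protein genes. At the canonical GENCODE starts the run was found in 4 of the 8, against 21.1% of 18364 genes that passed the expression filter and 86.8% of the 76 ribosomal protein genes. The run of SNHG12 was the longest, at 12 bases, and those of ZFAS1 and SNHG5 had 5 bases. GAS5 had a run only at its canonical start, ZFAS1 had the same one at both, SNHG8 and SNHG12 had different ones at their differing starts, and SNHG5 and SNHG16 had one only at the RefSeq start. SNHG1 and EPB41L4A-AS1 had no run at either annotated start. A run in the window need not begin at the start base. That of SNHG8 began 5 bases before its RefSeq start and 4 before its canonical start, and that of SNHG16 at base 6. Whether transcription starts at these runs was not tested. SNHG6 and SNHG15 had no RefSeq window and were left out at the canonical starts as well. A match is a description of these letters in this window.

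In the annotation, 23 snoRNA entries of the count table lay within the 10 genes, 7 of them in SNHG1, among them SNORD22 and SNORD25 to SNORD28, and 5 in SNHG12. Of those in SNHG12, 2 were entries of SNORA16A at the same place. SNHG16 and ZFAS1 held 3 each, the SNORD1 and SNORD12 families, and SNHG5 (SNORD50B), SNHG6 (SNORD87), SNHG8 (SNORA24), SNHG15 (SNORA9) and EPB41L4A-AS1 (SNORA13) held 1 each. No snoRNA inside GAS5 was analysed here. Only 2 of the 23 had any count, SNORD99 of SNHG12 with 121 and SNORD12C of ZFAS1 with 38 over all 15 libraries. The values below are therefore those of the host transcripts, and the snoRNAs were not measured by these libraries.

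The libraries held 14720387 to 24797509 counts each, and the 10 genes together took 0.0813 to 0.108% of them. MAML2, part of the fusion, was at 3.63 ± 0.782 CPM (SD, n = 3) in eGFP cells and at 199 CPM or more in every library of the other 4 groups. The HEK293 markers PAX2, EYA1, LIN28B, IGF2BP1, NEFM and VIM were detected in all 15 libraries, but their levels moved with the groups. Of 7 such markers, 6 were lower in condensed, 5 in diffuse and 3 in control DMSO cells than in eGFP cells (median log2 fold changes -0.67, -0.30 and -0.30), and 3 were lower in condensed than in control DMSO cells. NEFM, a neurofilament gene, stood at 107 ± 14.4 CPM in eGFP, 34.9 ± 2.66 in condensed, 30.5 ± 1.75 in diffuse and 51.4 ± 11.6 CPM in control DMSO cells (SD, n = 3). None was called with rapamycin in either kind of cell in edgeR, where 2 higher and 1 lower passed an unadjusted p under 0.05 in control cells and 1 higher in SPARK-OFF cells. The part of these markers in the results was not tested. Among markers of other lineages CD3E was at 0 in all libraries, PTPRC, PECAM1, VWF and ALB did not exceed 0.773 CPM and APOA1 2.06 CPM, while MBP and GFAP were at 1.46 to 5.53 CPM, and their part in the results was not tested. The sources do not say that replicates were separate cultures, and p-values therefore reflect the spread among these samples alone, which may be technical. In bulk RNA fewer cells of a type and less RNA per cell cannot be told apart.

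By counted reads GAS5 and SNHG1 were the highest members. SNHG5 and ZFAS1, which overlap other genes as given below, were the lowest. CPM are TMM-normalised counts expressed at one common depth. Averaged over the 15 libraries, GAS5 stood at 281 CPM, SNHG1 at 262, SNHG16 at 96.3, SNHG8 at 80.2, SNHG15 at 73.0 and SNHG6 at 51.3 CPM. SNHG12 at 35.2 CPM and EPB41L4A-AS1, which ran from 29.1 to 42.4 CPM over the libraries, lay next to each other, above ZFAS1 at 10.8 and SNHG5 at 5.51 CPM. The lowest count of a library was 59 for SNHG5 and 139 for ZFAS1, against 4088 for GAS5. Per kilobase of the annotated exons SNHG1 (65.9 CPM per kb) stood above GAS5 (57.0 CPM per kb), whereas per kilobase of the canonical transcript GAS5 (366 CPM per kb) stood above SNHG1 (225 CPM per kb) and SNHG16 (193 CPM per kb). The order by length thus turned on the transcript model.

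Some host genes share bases with neighbours. The strand setting of the counting is not given in the sources used here, so reads of overlapping antisense genes could not be told apart. Of the canonical transcript, 81.7% lay under exons of other genes for SNHG6 (MCMDC2 on the other strand) and 65.4% for ZFAS1 (ZNFX1 among them). It was 62.7% for EPB41L4A-AS1 (EPB41L4A) and 40.3% for SNHG8 (PRSS12). For SNHG5 it was 60.7%, all under genes on its own strand, where a strand setting would not tell the reads apart. The share of the canonical transcript was 0 for GAS5, SNHG1 and SNHG16. Over all annotated exons it was 7.75%, 15.4% and 31.1%, so these genes were not free of overlap. That of SNHG1 lay under the snoRNAs it hosts. For SNHG5, SNHG6, SNHG8, ZFAS1 and EPB41L4A-AS1 the values are therefore less certain.

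**Figure D1:**
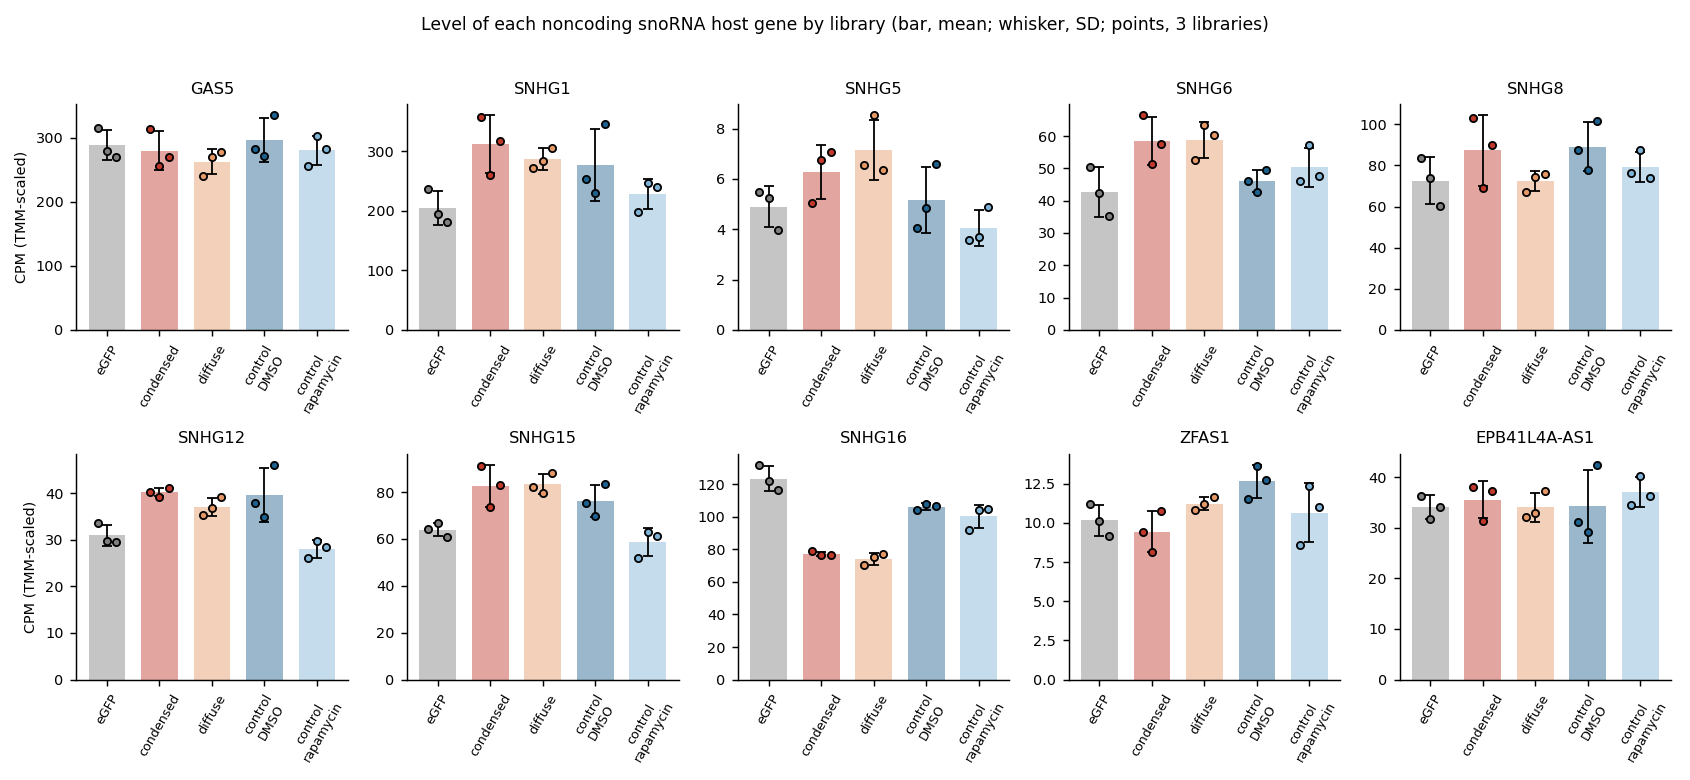
Level of each host gene in CPM (vertical axes, each from 0) in the 5 groups, with bars for the mean, whiskers for the SD and points for the 3 libraries. SNHG16 is lowest in condensed and diffuse cells, where its 6 libraries sit between 70.1 and 78.8 CPM, and SNHG12 is lowest in control rapamycin cells, at 26.0 to 29.7 CPM.

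Within each group the host genes moved up and down together from library to library, which bears on every comparison. Over the 45 pairs of members, the correlation of their log2 deviations from the group means had a median of 0.644 and ran from 0.117 to 0.943, over 15 libraries that also share depth and composition. All 10 members lay above their group mean in eGFP replicate 1 and in control DMSO replicate 3, with median deviations of 0.137 and 0.192 on the log2 scale. None lay above it in diffuse replicate 1, control DMSO replicate 1 or control rapamycin replicate 1. Control DMSO replicate 3 also had the lowest TMM factor of all libraries (0.901).
The library axis was not particular to the host genes. In 5 of 5 groups the library in which the members were highest also had the highest share of counts in ribosomal protein genes, the lowest TMM factor and the highest ratio of short to long genes, and the library in which they were lowest had the reverse in 5 of 5. The ratio compared 2411 genes with at most 3765 bases of exon with 2413 genes of at least 8701 bases. Members are thus not replicates of a condition, and a fit with this ratio as a covariate, chosen after seeing the data, is given below where it changed a call. With it the common biological coefficient of variation over all genes fell from 0.111 to 0.0886. The log2 ratio, centred over all libraries, also differed between the group means. It was -0.047 in eGFP, 0.050 in condensed, -0.052 in diffuse, 0.029 in control DMSO and 0.021 in control rapamycin cells (SD 0.036 to 0.111, n = 3). The covariate thus also shifts the differences between groups, and the ratio and the group cannot be fully told apart.

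**Figure D2:**
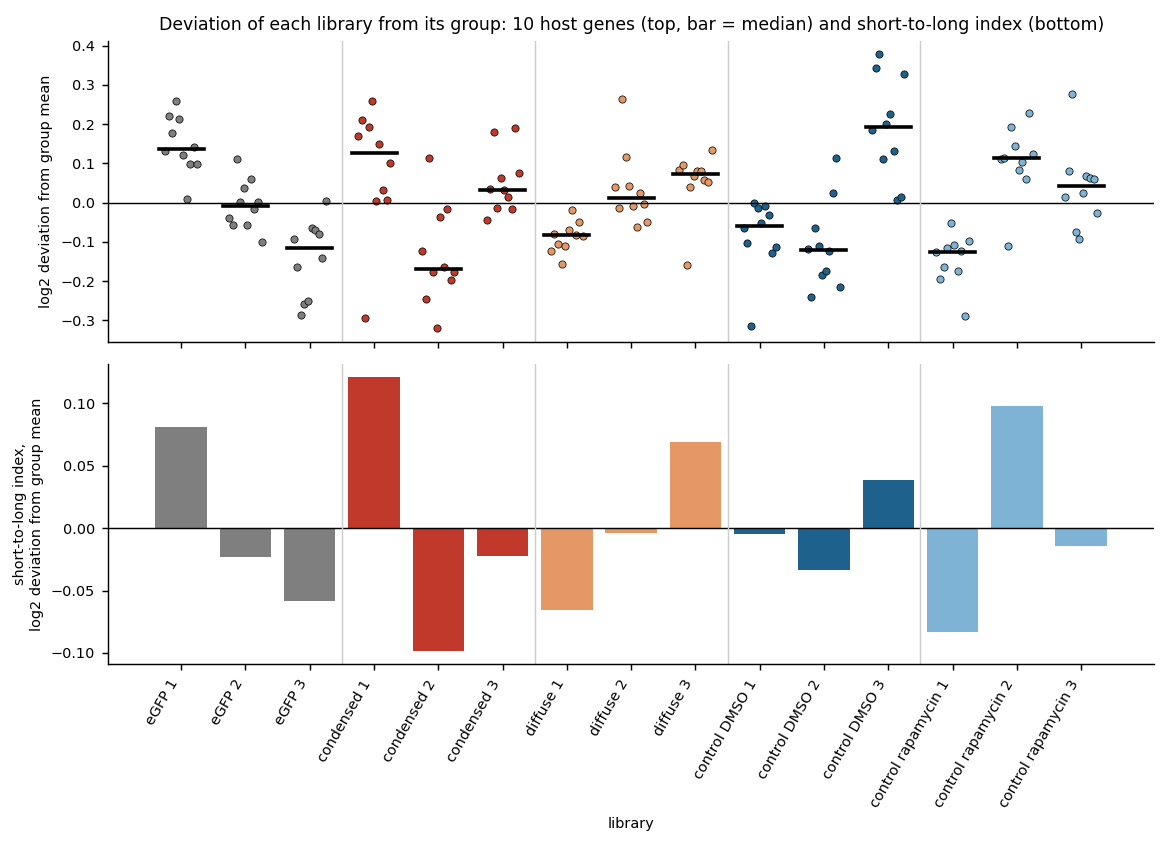
The top panel gives the log2 deviation of each of the 10 host genes from its group mean in the 15 libraries (points, with a bar for the median), and the bottom panel the deviation of the short-to-long ratio of each library (log2) from the mean of its group. In control DMSO replicate 3 all 10 points lie above 0 and in control rapamycin replicate 1 all lie below 0, and the ratio lies on the same side in both.

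Rapamycin in control cells asks how the host genes responded to the drug in cells that lack the mCherry part. SNHG12, host of SNORD99 and of H/ACA snoRNAs, was the only member called lower, and none was called higher. Its levels were 37.9, 34.9 and 46.1 CPM with DMSO and 26.0, 29.7 and 28.5 CPM with rapamycin, so that the groups did not overlap. The log2 fold change was -0.50 (standard error, SE, 0.106, edgeR quasi-likelihood test, adjusted p = 0.0153). Thus 1 member of 10 was called, where 1.62% of all genes tested were called and 1.17% were called lower.
The call of SNHG12 rested on the libraries of both control groups, and it was lost when only these groups were fitted (-0.49, edgeR adjusted p = 0.176). Without control DMSO replicate 3 the log2 fold change was -0.37 (edgeR adjusted p = 0.0547), without control rapamycin replicate 1 it was -0.44 (adjusted p = 0.117) and without control rapamycin replicate 3 it was -0.51 (adjusted p = 0.0669).
SNHG15, host of SNORA9, had 75.5, 69.8 and 83.3 CPM with DMSO and 51.9, 62.9 and 61.4 CPM with rapamycin, which do not overlap either. Its log2 fold change of -0.38 (SE 0.101) missed the threshold in the edgeR fit (adjusted p = 0.0596) and passed it with the covariate (-0.37, edgeR adjusted p = 0.00524) and in DESeq2 (-0.39, adjusted p = 0.0120). The libraries of the 2 groups did not overlap for 2 of the 10 members and for 19.4% of all genes.
SNHG1, host of the SNORD25 to SNORD28 cluster, had 254, 231 and 346 CPM with DMSO and 199, 246 and 240 CPM with rapamycin, with control DMSO replicate 3 far above the rest. Its log2 fold change was -0.28 (95% confidence interval -0.56 to 0.01, edgeR adjusted p = 0.346), and without that library it was -0.08.

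GAS5, whose RNA is known to accumulate in growth-arrested cells, had overlapping levels with and without rapamycin. Growth itself was not measured by these libraries. The control DMSO libraries held 282, 271 and 335 CPM and the control rapamycin libraries 256, 302 and 282 CPM. The log2 fold change was -0.08 with a 95% confidence interval from -0.29 to 0.13, and in SPARK-OFF cells it was -0.09 with an interval from -0.31 to 0.12. Without control DMSO replicate 3 the value in control cells was 0.020, and with the covariate that in SPARK-OFF cells was 0.064.
The 6 remaining members had log2 fold changes from -0.36 for SNHG5 to 0.13 for SNHG6 in control cells, and none passed the test. Over the 10 members the median log2 fold change was -0.21, against -0.00088 over all genes tested. All 10 lay above their group mean in control DMSO replicate 3, so their values are not separate results.

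In SPARK-OFF cells, where rapamycin also dissolved the condensates, no member was called, and 0.13% of all genes were. RNA of the fusion genes also differed, with MAML2 at 415 ± 23.9 CPM in condensed and 540 ± 31.6 CPM in diffuse cells (SD, n = 3). YAP1 was at 202 ± 18.1 and 267 ± 19.0 CPM. Both passed an unadjusted p under 0.05 in edgeR without being called, and their part in this comparison was not tested. The paper reports unchanged protein levels of the fusion. With edgeR 0 members passed an unadjusted p under 0.05, as did 5.48% of all genes, and DESeq2 called 0 members. Libraries did not overlap for 2 members and for 12.8% of all genes. The median log2 fold change of the members was -0.06, against -0.0080 over all genes. SNHG12 had 40.3, 39.2 and 41.1 CPM in condensed and 35.3, 36.8 and 39.1 CPM in diffuse cells, without overlap, and a log2 fold change of -0.12 (95% confidence interval -0.33 to 0.10). SNHG15 had 91.3, 73.5 and 83.2 CPM in condensed and 82.2, 79.8 and 88.1 CPM in diffuse cells, which overlap (log2 fold change 0.01, interval -0.19 to 0.22). ZFAS1, antisense to ZNFX1, did not overlap, with 9.45, 8.17 and 10.7 CPM in condensed and 10.8, 11.2 and 11.6 CPM in diffuse cells. Its log2 fold change was 0.25 (SE 0.148, edgeR adjusted p = 0.983).
The difference between the responses of SPARK-OFF and control cells was tested as an interaction, which called no member and 0.0979% of all genes. DESeq2 called 0 members, and 3 members passed an unadjusted p under 0.05 in edgeR, as did 7.42% of all genes. They were SNHG12 (difference 0.38, 95% confidence interval 0.08 to 0.69), SNHG15 (0.39, interval 0.10 to 0.68) and ZFAS1 (0.50, interval 0.07 to 0.93). With the covariate SNHG15 passed, with a difference of 0.51 (edgeR adjusted p = 0.0368), so that its call depended on that choice. The other members had differences of -0.01 (GAS5), 0.16 (SNHG1), 0.55 (SNHG5), -0.12 (SNHG6), -0.10 (SNHG8), 0.03 (SNHG16) and -0.17 (EPB41L4A-AS1).

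**Figure D3:**
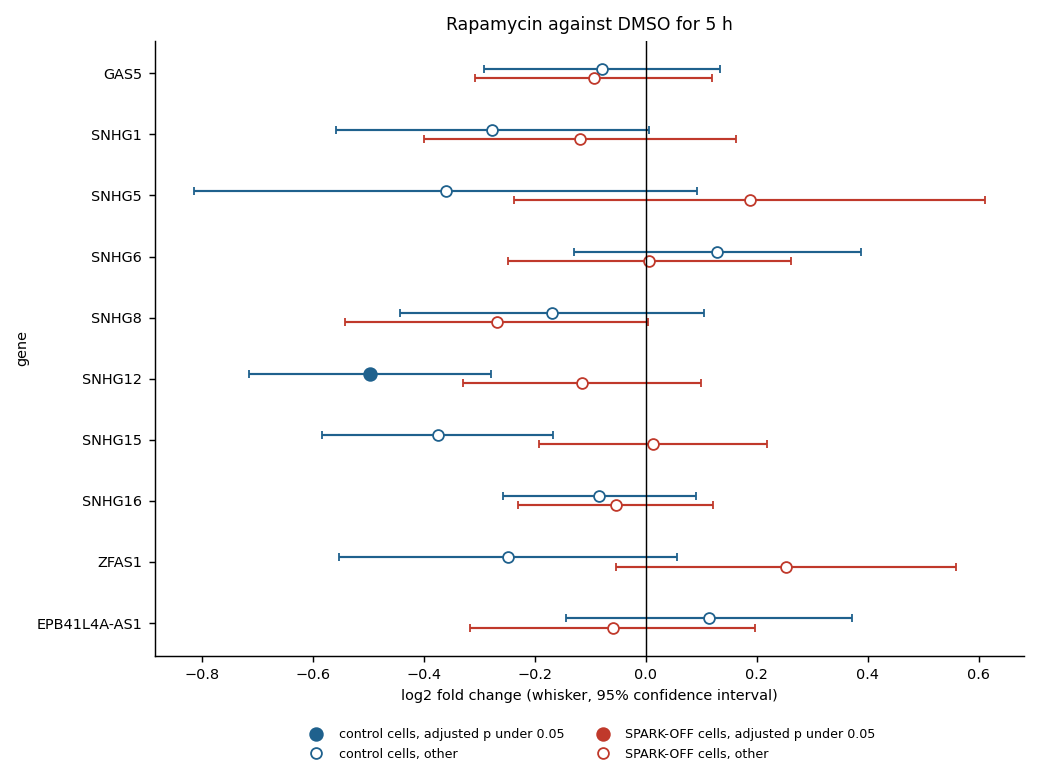
Log2 fold change with rapamycin against DMSO (horizontal axis) for the 10 host genes in control cells and in SPARK-OFF cells, with 95% confidence intervals as whiskers and filled points for an adjusted p under 0.05. SNHG12 in control cells, at -0.50, is the only filled point, and the intervals of GAS5 include 0 in both kinds of cell.

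Other genes of the same pathways with rapamycin in control cells were as follows, beside 1.62% of all genes called. With rapamycin in SPARK-OFF cells no gene of these lists was called, beside 0.13% of all genes. The medians there were -0.10 for the protein-coding snoRNA host genes and -0.12 for the proteins of the snoRNA particles. Of 16 protein-coding snoRNA host genes, 1 was higher and 6 were lower (median log2 fold change -0.28), with HSPA8 (-1.01), a chaperone of the heat shock family, and DKC1 (-0.58), the pseudouridine synthase of H/ACA particles, the lowest by adjusted p. EEF2, the translocation factor of the ribosome, was the higher one (0.35). Of 14 protein components and assembly factors of the snoRNA particles, 4 were lower and none higher (median -0.31), with DKC1 again and NUFIP1 (-0.60), an assembly factor of box C/D particles. These are the genes that bind the products of the host introns.
Of 17 other noncoding host genes tested, 1 was lower, SNHG3 (-0.39), and none was higher. None of 76 cytosolic ribosomal protein genes, the main class of TOP mRNAs, was called in edgeR (median 0.05), with 4 higher and 1 lower at an unadjusted p under 0.05. Of 17 TOP mRNAs of translation factors 1 was higher, EEF2 again, and none was lower (median 0.03). None of 15 factors of nonsense-mediated decay was called (median -0.16), and 6 were lower at an unadjusted p under 0.05. Of 14 protein-coding targets of that decay 1 was lower, the stress response factor ATF4 (-0.38). Of 19 regulators of mTORC1 and of TOP translation, 2 were lower, among them DDIT4 (-0.56), an inhibitor of mTORC1. With only the groups compared, HSPA8, DKC1, NUFIP1, EEF2, SNHG3, ATF4 and DDIT4 all missed the threshold (adjusted p from 0.0567 to 0.265 in edgeR). The calls of EEF2, SNHG3, ATF4 and DDIT4 were each lost without control rapamycin replicate 2 and without replicate 3 (adjusted p from 0.0511 to 0.156). Without control rapamycin replicate 1 those of NUFIP1, EEF2, SNHG3 and ATF4 were lost (adjusted p from 0.0626 to 0.143), and without TMM those of SNHG3 (adjusted p = 0.0573) and DDIT4 (adjusted p = 0.1001). SNHG3 and DDIT4 were also not called without control DMSO replicate 2 (adjusted p = 0.0598 and 0.129), nor ATF4 without control DMSO replicate 3 (adjusted p = 0.0566), nor DDIT4 without condensed replicate 3 (adjusted p = 0.0540) or diffuse replicate 2 (adjusted p = 0.0519).

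Against eGFP cells, condensed cells had higher levels of SNHG1, SNHG6, SNHG12 and SNHG15 and a lower level of SNHG16. Of the 10 members 5 were called, against 27.1% of all genes tested. The 4 higher ones stand beside 13% of genes called higher and the 1 lower one beside 14.1% called lower. Libraries did not overlap for 5 members and for 40.5% of all genes. The median log2 fold change of the members was 0.31, against 0.0045 over all genes, and 2 members met the DEG thresholds of the study (P under 0.01, FDR under 0.1 and 0.58 or more on the log2 scale in either direction), as did 13.2% of all genes.
SNHG16, host of SNORD1A, SNORD1B and SNORD1C on chromosome 17 (hg38, 76557727 to 76670985), was the member with the largest difference. It had 132, 122 and 116 CPM in eGFP cells and 78.8, 76.3 and 76.3 CPM in condensed cells. The log2 fold change was -0.68 (SE 0.085, edgeR adjusted p = 3.59e-06), and it was called in all 22 alternative fits, with values from -0.74 to -0.63.
SNHG1, on chromosome 11 (hg38, 62851978 to 62855953), had 237, 196 and 182 CPM in eGFP cells and 358, 261 and 317 CPM in condensed cells, which do not overlap. It rose by 0.61 (SE 0.137, edgeR adjusted p = 0.00201) and was called in all 22 alternative fits.
SNHG12 had 33.6, 29.7 and 29.6 CPM in eGFP cells, below all 3 condensed libraries, and rose by 0.38 (SE 0.105, edgeR adjusted p = 0.0103). SNHG15 had 64.4, 66.7 and 61.0 CPM in eGFP cells, again below all condensed libraries, and rose by 0.37 (SE 0.101, edgeR adjusted p = 0.00871). Without condensed replicate 1 SNHG15 had a log2 fold change of 0.29 (edgeR adjusted p = 0.0639).
SNHG6, host of SNORD87, had 50.5, 42.3 and 35.3 CPM in eGFP cells and 66.5, 51.5 and 57.6 CPM in condensed cells. It rose by 0.45 (edgeR adjusted p = 0.00941), but was not called without eGFP replicate 3 (0.34, adjusted p = 0.0734) or without condensed replicate 1 (0.35, adjusted p = 0.0701).
GAS5 overlapped between the groups, with 315, 280 and 270 CPM in eGFP cells and 313, 256 and 270 CPM in condensed cells (log2 fold change -0.04, 95% confidence interval -0.26 to 0.17). With the covariate its log2 fold change was -0.19 with an edgeR adjusted p of 0.04995, just under the threshold. SNHG8, host of SNORA24, had 0.27 (interval -0.01 to 0.54) and was called without condensed replicate 2 (0.42, edgeR adjusted p = 0.0236). SNHG5, ZFAS1 and EPB41L4A-AS1 had log2 fold changes of 0.35, -0.11 and 0.06, and none passed the test.

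Diffuse cells, compared with the same eGFP libraries, gave 4 called members (3 higher, 1 lower), against 23.9% of all genes tested (11.4% higher, 12.5% lower), and 1 member met the DEG thresholds, against 11.6% of all genes. Libraries did not overlap for 6 members and for 40.6% of all genes. The median log2 fold change of the members was 0.20, against 0.0063 over all genes. SNHG16 had 70.1, 75.5 and 77.2 CPM in diffuse cells, again below all eGFP libraries, and a log2 fold change of -0.73 (SE 0.085, edgeR adjusted p = 1.31e-06). SNHG15 rose by 0.38 (edgeR adjusted p = 0.00768), and both genes were called in all 22 alternative fits.
SNHG1 had 271, 284 and 306 CPM in diffuse cells and rose by 0.49 (edgeR adjusted p = 0.0117). SNHG6 had 52.6, 63.5 and 60.3 CPM and rose by 0.46 (adjusted p = 0.00962). Without eGFP replicate 3 neither was called (edgeR adjusted p = 0.0654 and 0.0747). SNHG1 was also not called without eGFP replicate 2 (adjusted p = 0.0503) or diffuse replicate 3 (adjusted p = 0.0510), and SNHG6 not without diffuse replicate 2 (adjusted p = 0.0523).
SNHG12 had a log2 fold change of 0.26 (edgeR adjusted p = 0.0748) and was called with the covariate (0.27, adjusted p = 0.0300). SNHG5, host of SNORD50B, had 5.50, 5.25 and 3.96 CPM in eGFP cells and 6.57, 8.54 and 6.34 CPM in diffuse cells, which do not overlap (log2 fold change 0.54, interval 0.10 to 0.97, adjusted p = 0.0668). Without control DMSO replicate 3 both SNHG5 (0.54, edgeR adjusted p = 0.0379) and SNHG12 (0.26, adjusted p = 0.0271) were called, which made 6 members. SNHG8 and EPB41L4A-AS1 were at -0.0023 and 0.0045, GAS5 at -0.14 and ZFAS1 at 0.14, and none of them passed the test.

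Control DMSO cells, which carry the fusion without mCherry, had 2 members called higher than eGFP cells, where 7.08% of all genes tested were called higher and 13.5% were called in either direction. They were SNHG1 (0.44, edgeR adjusted p = 0.0381) and SNHG12 (0.36, adjusted p = 0.0294). Neither was called without eGFP replicate 2, without eGFP replicate 3 or without control DMSO replicate 3, nor with only the groups compared (edgeR adjusted p = 0.111 and 0.122), nor with the covariate, where SNHG16 was called in their place (-0.27, edgeR adjusted p = 0.0199). The members not called ran from -0.22 for SNHG16 to 0.32 for ZFAS1, with SNHG8 at 0.30, SNHG15 at 0.25, SNHG6 at 0.11, SNHG5 at 0.08, GAS5 at 0.04 and EPB41L4A-AS1 at 0.0099. The lowest values over the alternative fits were 0.24 for SNHG1 and 0.23 for SNHG12, both without control DMSO replicate 3. SNHG1 was also not called without condensed replicate 3 (0.43, adjusted p = 0.0519). The comparisons of condensed, diffuse and control DMSO cells share the 3 eGFP libraries, so their values stand side by side and are not independent.

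**Figure D4:**
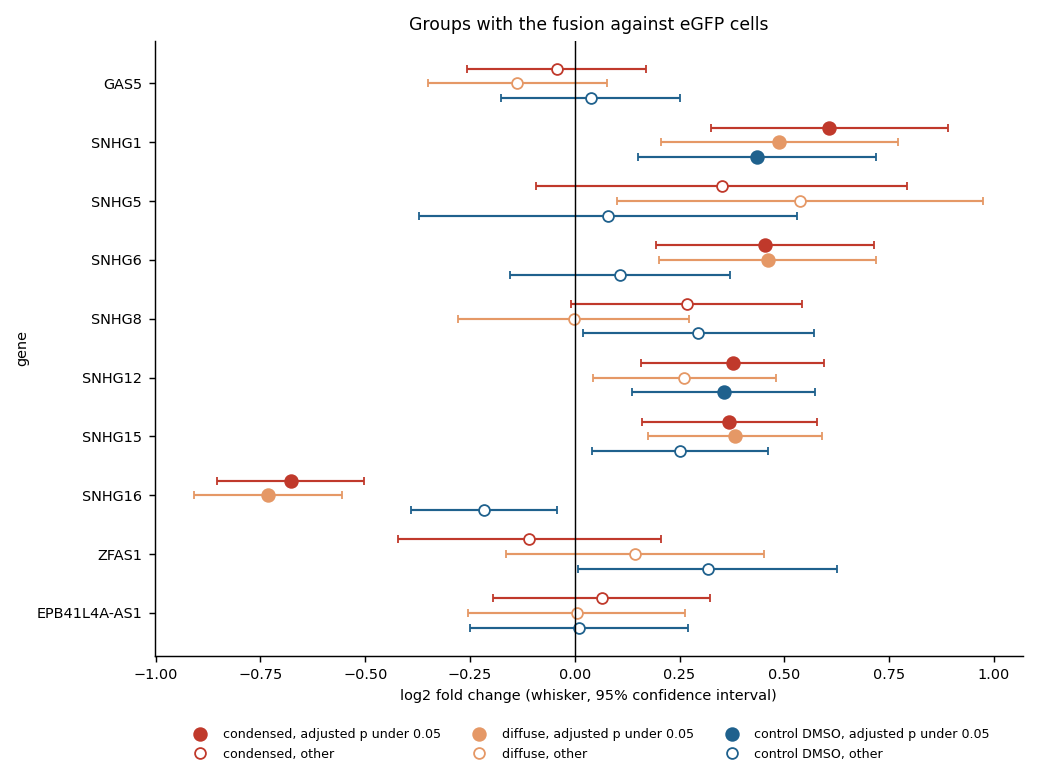
Log2 fold change against eGFP cells (horizontal axis) of the 10 host genes in condensed, diffuse and control DMSO cells, with 95% confidence intervals as whiskers and filled points for an adjusted p under 0.05. SNHG16 is far to the left in condensed (-0.68) and diffuse (-0.73) cells and less so in control DMSO cells (-0.22, open), and SNHG1 is filled in all 3 groups.

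Between the cells with DMSO, SPARK-OFF and control, SNHG16 alone was called, against 7.03% of all genes tested, of which the lower ones made up 3.25% of the genes tested. It had 104, 108 and 107 CPM in control DMSO cells, above the 3 condensed libraries, and a log2 fold change of -0.46 (SE 0.085, edgeR adjusted p = 0.00149), called in all 22 alternative fits. SNHG6 (0.35, edgeR adjusted p = 0.0948) and ZFAS1 (-0.43, adjusted p = 0.0846) did not pass, and passed with the covariate (0.30, adjusted p = 0.0179, and -0.46, adjusted p = 0.0265). The other members, none of them called, ran from -0.08 for GAS5 to 0.27 for SNHG5, with SNHG1 at 0.17, SNHG15 at 0.12, EPB41L4A-AS1 at 0.05, SNHG12 at 0.02 and SNHG8 at -0.03. The median log2 fold change of the members was 0.04, against -0.02 over all genes. These cell populations differ in mCherry-Frb and in the level of the fusion as well, since MAML2 was at 415 ± 23.9 CPM in condensed and 220 ± 19.3 CPM in control DMSO cells (SD, n = 3), so that these differences cannot be told apart.
Across the 5 groups SNHG16 was ordered from eGFP (123 ± 7.82 CPM, SD, n = 3) to control DMSO (106 ± 2.09), control rapamycin (100.2 ± 7.29), condensed (77.1 ± 1.47) and diffuse cells (74.3 ± 3.70). MAML2 had the opposite order, with 3.63, 220, 243, 415 and 540 CPM on average, and a link between the orders was not tested. For SNHG16 the neighbours control DMSO and control rapamycin did not differ beyond their spread (-0.08, 95% confidence interval -0.26 to 0.09). Nor did condensed and diffuse (-0.05, interval -0.23 to 0.12), while control rapamycin and condensed cells were not compared.
For SNHG12 the order was condensed (40.2 ± 0.940 CPM), control DMSO (39.6 ± 5.78), diffuse (37.1 ± 1.94), eGFP (31.0 ± 2.30) and control rapamycin (28.1 ± 1.87). For SNHG15 it was diffuse (83.4 ± 4.29 CPM), condensed (82.7 ± 8.94), control DMSO (76.2 ± 6.80), eGFP (64.0 ± 2.87) and control rapamycin (58.7 ± 5.98). Both had control rapamycin cells last, next to the mock-treated cells.

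Among the 17 other noncoding snoRNA host genes tested, 5 were higher and 2 lower in condensed against eGFP cells (median 0.16), and 2 were higher and 3 lower in diffuse against eGFP cells (median 0.18). SNHG10 rose, from 20.2 ± 1.77 CPM in eGFP to 33.2 ± 1.96 CPM in condensed cells (log2 fold change 0.71, SD, n = 3). SNHG3, host of H/ACA snoRNAs, was lower, with 99.1 ± 1.61 CPM in eGFP, 70.4 ± 5.74 in condensed and 65.8 ± 4.42 CPM in diffuse cells (-0.49 and -0.59). DANCR was lower too (-0.45 and -0.62), although its call in condensed cells was lost without eGFP replicate 1 (-0.31, edgeR adjusted p = 0.0517). Against control DMSO cells, condensed cells had higher SNHG10 (0.57) and lower SNHG3 (-0.40) and DANCR (-0.56). That of SNHG3 was not called without condensed replicate 2 (-0.33, edgeR adjusted p = 0.0544) or with only the groups compared (adjusted p = 0.0763). SNHG16 was thus not the only noncoding host gene that was lower with SPARK-OFF.
The counts in the lists below stand beside 13% of all genes called higher and 14.1% called lower in condensed cells, and 11.4% and 12.5% in diffuse cells. Of 17 TOP mRNAs of translation factors, none was higher and 6 were lower in condensed against eGFP cells in edgeR (median -0.16), with EEF2 at -0.42, and none was higher at an unadjusted p under 0.05. Of 76 cytosolic ribosomal protein genes 1 was higher and 11 were lower (median -0.11), and in diffuse cells none was higher and 20 were lower (median -0.21; 0 higher at an unadjusted p under 0.05). Of 14 proteins of the snoRNA particles 3 were higher and none lower in condensed cells (median -0.03). Before adjustment 4 were higher and 2 lower there at an edgeR p under 0.05. The higher ones included GAR1 (0.46), a core protein of H/ACA particles. The balance differed in the other groups. Diffuse against eGFP cells had 1 higher and 4 lower (median -0.18), and control DMSO against eGFP cells had 0 higher and 2 lower (median -0.09).
Of 15 factors of nonsense-mediated decay 3 were higher and none lower in condensed cells (median 0.06; 1 lower at an unadjusted p under 0.05), among them MAGOH (0.62) and RBM8A (0.53), partners in the exon junction complex. Of 14 protein-coding targets of that decay 3 were higher and 1 lower (median 0.13), with GADD45B (2.86) and GADD45A (0.50), stress-induced growth arrest genes. Of 19 regulators of mTORC1 and TOP translation 2 were higher and 10 lower (median -0.33), with DDIT4 (-1.75) and MLST8 (-0.75), a subunit of both mTOR complexes. The median over all genes tested was 0.0045 in condensed and 0.0063 in diffuse against eGFP cells.

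Genes that share a start region with a host gene did not all move with it. SLC3A2, the heavy chain of amino acid transporters, starts head to head with SNHG1 on the other strand. It was higher in condensed (0.48, edgeR adjusted p = 0.000138) and diffuse cells (0.46) than in eGFP cells, where SNHG1 had 0.61 and 0.49. With rapamycin in control cells SLC3A2 had -0.31 (edgeR adjusted p = 0.0550), beside -0.28 for SNHG1. The calls of the pair differed where the control cells with DMSO were compared with other cells: in control DMSO against eGFP cells SLC3A2 had 0.16 (edgeR adjusted p = 0.181) where SNHG1 was called at 0.44, and between the cells with DMSO SLC3A2 was called at 0.32 (edgeR adjusted p = 0.0201) where SNHG1 had 0.17. ZBTB37, a zinc finger gene that starts near GAS5 on the other strand, had -0.81 in condensed against eGFP cells (edgeR adjusted p = 8.13e-05), where GAS5 had -0.04. PRSS12, a serine protease gene under SNHG8, had -0.92 there (edgeR adjusted p = 0.000690), while SNHG8 had 0.27. ZNFX1, opposite ZFAS1, had -0.0016 and ZFAS1 -0.11.

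The genes whose levels over the 15 libraries were most like the mean standardised profile of the members were GLRX3, PSMD14, MRPL13, HDAC2 and HMGB1, with Pearson's r from 0.979 to 0.972, out of 9972 genes with a mean of at least 10 CPM. For GAS5 alone they were CHCHD2 (r = 0.963), PARK7 (0.957), NDUFS3 (0.948), TIMMDC1 and ZWINT. These values share the library axis described above, and no more was read from them. Of the members, SNHG1 followed the mean of the others most closely (r = 0.840), and SNHG16 was the only one with a negative value (-0.321).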

How the data were processed

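The authors trimmed reads with fastp and aligned them to hg38 with STAR, and the submitters' notes also name FastQC, HTSeq and edgeR, without versions. They deposited whole-number counts per gene, not normalized. For annotation and strand setting the sources used here give nothing. Of the 61533 identifiers, 61369 matched GENCODE v44, which gave names and coordinates. Counts were fitted with edgeR 4.0.16 in R 4.3.3: filterByExpr over the 5 groups, TMM, and one quasi-likelihood fit over all 15 libraries, with Benjamini-Hochberg adjustment over 18391 genes. A call is an adjusted p under 0.05. Standard errors are the log2 fold change divided by the root of F. In simulated counts for rapamycin in control cells (17978 genes) 75% of changes set to 0.58 on the log2 scale and 100% of those set to 1 were recovered, with 4.37% false calls. For condensed against eGFP (17961 genes) it was 66% and 98%, with 4.09% false calls. Such rates were not tested for the measured libraries, whose genes moved together along the library axis described above. DESeq2 1.42.0, other scalings, no filter, the replicate number as a block, fits of only the groups compared, and leaving out each library were tried. Members, lists and tests were chosen with earlier results of these data known. All 10 members were tested in every comparison, and other genes were named as called list members or neighbours. The precision follows the depth of 14720387 to 24797509 counts per library. Replicate numbers did not pair the samples. Some genes that the rule for naming covers are not reported here.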

Additional observations from a re-analysis of the deposited data

Results flagged for a closer look

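HSPA8, a protein-coding snoRNA host gene, responded differently to rapamycin in the 2 kinds of cell by the test of the difference itself. It had 2924, 2745 and 3713 CPM in control DMSO and 1347, 1655 and 1662 CPM in control rapamycin cells, but 3235, 2547 and 2926 CPM in condensed and 2465, 2677 and 2847 CPM in diffuse cells. The difference of the log2 fold changes was 0.88 (standard error 0.167, adjusted p = 0.0348 from edgeR). The call was lost with the replicate block (adjusted p = 0.0631) and without any one of 10 of the 15 libraries, with values of 0.79 to 0.94. Groups of 3 libraries were not searched for outlying samples.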

How the results depend on the processing

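The 22 alternatives were 7 other fits, of which the covariate for the short-to-long ratio was chosen after seeing the data, and 15 fits that each left out 1 library. SNHG16 kept its calls in condensed and diffuse against eGFP cells and between the cells with DMSO in all 22, and SNHG1 and SNHG12 kept theirs in condensed against eGFP cells. Of the log2 fold changes of members under the 7 other fits 449 kept their direction and their side of the threshold, 14 passed it, 5 fell short of it and 22 changed sign. No member that was called changed sign. The cause of each change below was not tested.
Members called with rapamycin in control cells were 2 in DESeq2, 2 with the covariate and 0 in the fit of only the groups compared, against 1. Those for the difference of the responses were 1 with the covariate, against 0. Those for control DMSO against eGFP were 0 with only the groups compared and 1 with the covariate, against 2, and those between the cells with DMSO were 2 without TMM and 3 with the covariate, against 1. The counts over all genes were 298 with rapamycin in control cells (760 in DESeq2, 2 with only the groups compared, 848 with the covariate), 24 in SPARK-OFF cells (65 in DESeq2, 61 without the filter, 63 with only the groups compared) and 18 for the difference (9 without TMM, 78 in DESeq2, 51 without the filter, 91 with the covariate). They were 2481 for control DMSO against eGFP (533 with only the groups compared) and 1293 between the cells with DMSO (455 with only the groups compared, 2645 with the covariate).
The replicate numbers did not pair the samples: deviations of samples with the same number had correlations from -0.115 to 0.0992, and 0 of 18 pairs exceeded 0.1. With the replicate number as a block the same members were called in each of the 7 comparisons, and 8 genes were called for the difference of the responses.
Leaving out 1 library at a time, the members called were 0 to 2 with rapamycin in control cells, 0 to 0 in SPARK-OFF cells and for the difference, 3 to 6 in condensed, 2 to 6 in diffuse and 0 to 2 in control DMSO against eGFP cells, and 1 to 1 between the cells with DMSO. The genes called were 83 to 381, 11 to 56, 2 to 80, 3772 to 6192, 3208 to 5603, 968 to 3307 and 658 to 1603 in the same order.
Values that changed sign lay near 0 and were not called. With the covariate they were, in SPARK-OFF cells with rapamycin, GAS5 0.064, SNHG1 0.11, SNHG16 0.013 and EPB41L4A-AS1 0.093, for the difference GAS5 0.13, SNHG6 0.074 and SNHG8 0.11, and for EPB41L4A-AS1 -0.083 in condensed against eGFP cells. For SNHG8 in diffuse against eGFP cells they were 0.0046 with the size factors of DESeq2, 0.066 without TMM, 0.0045 in DESeq2, 0.0070 without the filter, 0.0019 with the replicate block, 0.0048 with only the groups compared and 0.015 with the covariate. With the replicate block EPB41L4A-AS1 had -0.00025 in diffuse and in control DMSO cells against eGFP cells. In control DMSO cells EPB41L4A-AS1 had -0.032 without TMM and -0.11 with the covariate, GAS5 -0.077 and SNHG6 -0.033 with the covariate, and between the cells with DMSO SNHG8 had 0.027 without TMM.
Leaving out 1 library, the ranges of values that changed sign were -0.14 to 0.020 for GAS5 with rapamycin in control cells, and -0.067 to 0.092 for SNHG15 and -0.080 to 0.11 for SNHG6 in SPARK-OFF cells. For the difference they were -0.11 to 0.074 for GAS5, -0.035 to 0.27 for SNHG1, -0.030 to 0.069 for SNHG16 and -0.25 to 0.037 for SNHG8. Against eGFP cells they were -0.13 to 0.025 for GAS5 in condensed cells, -0.064 to 0.055 for EPB41L4A-AS1 and -0.12 to 0.11 for SNHG8 in diffuse cells, and -0.18 to 0.12 for EPB41L4A-AS1, -0.061 to 0.11 for GAS5, -0.14 to 0.22 for SNHG5 and -0.012 to 0.25 for SNHG6 in control DMSO cells. Between the cells with DMSO they were -0.046 to 0.24 for EPB41L4A-AS1, -0.17 to 0.017 for GAS5, -0.058 to 0.14 for SNHG12 and -0.17 to 0.12 for SNHG8. The shallow members SNHG5 and ZFAS1 had standard errors of up to 0.219 and 0.151 between pairs of groups.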
